A study of Mus musculus with 10 samples.

Results

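The 39 mouse genes described here encode the translation initiation factors eIF1 to eIF6, related proteins, and the poly(A)-binding protein Pabpc1 with its partners Paip1 and Paip2. Eif1ad and Eif4a3 are among those that encode related proteins, and all 39 are called initiation factor genes here. They were chosen by symbol, matched in GENCODE M21 to the Ensembl identifiers of the count tables, out of 48709 genes in each table. All 39 were found and all 39 passed the filter on low counts, among 15660 genes tested. RNA was taken from primary hippocampal neurons, cells of the mouse hippocampus grown for 10 days in vitro. There were 6 libraries from cultures given tunicamycin at 2 ug/mL for 6 h and 4 from cultures given DMSO, the solvent, for the same time. Tunicamycin blocks N-linked glycosylation, so that glycoproteins misfold in the endoplasmic reticulum (ER). No genotype, strain, age or pooling of animals is given in the labels.

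A transcript is read by the ribosome once its start codon has been found by the small ribosomal subunit, and the initiation factors carry out that search. eIF2 brings the initiator tRNA, eIF1 and eIF1A keep the subunit in a scanning form, and eIF3 is the large scaffold on which they assemble. eIF4E binds the cap of the transcript, eIF4A unwinds it, and eIF4G joins both to eIF3 and to the poly(A)-binding protein, while eIF5 and eIF5B complete start codon recognition and subunit joining. ER stress is known to act on this step through the kinase PERK, which phosphorylates the alpha subunit of eIF2 and so lowers initiation. The comparison of tunicamycin with DMSO libraries asks here how the transcripts of this machinery changed.

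Library totals were 2.11e+07 to 2.92e+07 counts. Genes of ER stress were at high levels in every tunicamycin library, with Hspa5, the main ER chaperone, at 3211 CPM on average with tunicamycin and 613 CPM with DMSO (log2 2.38 ± 0.04, SE, edgeR adjusted p = 7.65e-20). Counts came from whole cultures, in which fewer cells of a type and less RNA per cell cannot be told apart. Summed over 11 neuron markers, levels were 7089 to 7451 CPM (counts per 1e6 of the library total) in tunicamycin libraries, against 8376 to 8880 CPM in DMSO libraries, and 9 of the 11 fell. Over 10 astrocyte markers the sums were 2101 to 2336 CPM with tunicamycin and 3063 to 3487 CPM with DMSO, and all 9 tested markers fell. Microglia markers, 9 genes, summed to 11.9 to 14.5 CPM with tunicamycin and 16.5 to 20.3 CPM with DMSO, and 5 of the 7 tested fell. The groups did not overlap in any of these sums. Proliferation markers, 8 genes, summed to 62.5 to 73.5 CPM with tunicamycin and 97.7 to 123 CPM with DMSO, and all 8 fell. Oligodendrocyte lineage markers, 9 genes, summed to 122 to 147 CPM with tunicamycin and 191 to 241 CPM with DMSO, and of the 8 tested 4 fell and 1 rose. Endothelial and mural markers, 8 genes, overlapped, at 124 to 185 CPM with tunicamycin and 122 to 213 CPM with DMSO, and of the 7 tested 2 fell and 1 rose. A marker is said to fall or rise where edgeR's adjusted p was under 0.05. By that measure 32.5% of all genes tested fell and 31.8% rose. None of these markers was at 0 in all libraries, and their part in the results on initiation factors was not tested.

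With tunicamycin more initiation factor genes rose than fell, and most changes were small. By edgeR's quasi-likelihood test, 22 of the 39 genes rose and 9 fell (adjusted p under 0.05, Benjamini-Hochberg over all genes tested). Among all genes tested 64.3% were called, 31.8% higher and 32.5% lower, against 56.4% and 23.1% of the initiation factor genes. The median log2 fold change was 0.14 over the 39 genes and -0.02 over all genes tested. A rise of at least 0.3 on the log2 scale was found for 10 of the 39 and for 20.5% of all genes, and a fall of that size for 2 of the 39 and 18.9% of all genes. In 21 genes all tunicamycin libraries lay above all DMSO libraries, as did 27.0% of all genes, and in 6 they lay below, as did 23.9% of all genes. Summed over the 39 genes, the level was 7687 ± 65.2 CPM in tunicamycin libraries and 6987 ± 97.4 CPM in DMSO libraries (SD, n = 6 and 4).

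How libraries are scaled bears on the small changes. With upper-quartile scaling in place of TMM, the median of all genes moved by -0.11 on the log2 scale, and 15 of the 39 genes were called higher and 14 lower. The split of all genes then became 23.2% higher and 44.3% lower. Those 15 and the 9 that fell under TMM were called in the same direction under TMM, under DESeq2's size factors and under upper-quartile scaling. Eif2s1, Eif3m, Eif4g2, Eif4g3, Eif5b, Eif6 and Pabpc1 rose under TMM and were not called under upper-quartile scaling, so their direction is relative to the bulk of genes as TMM sets it. Ratios between members, used further on for related genes, do not depend on scaling.

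**Figure D1:**
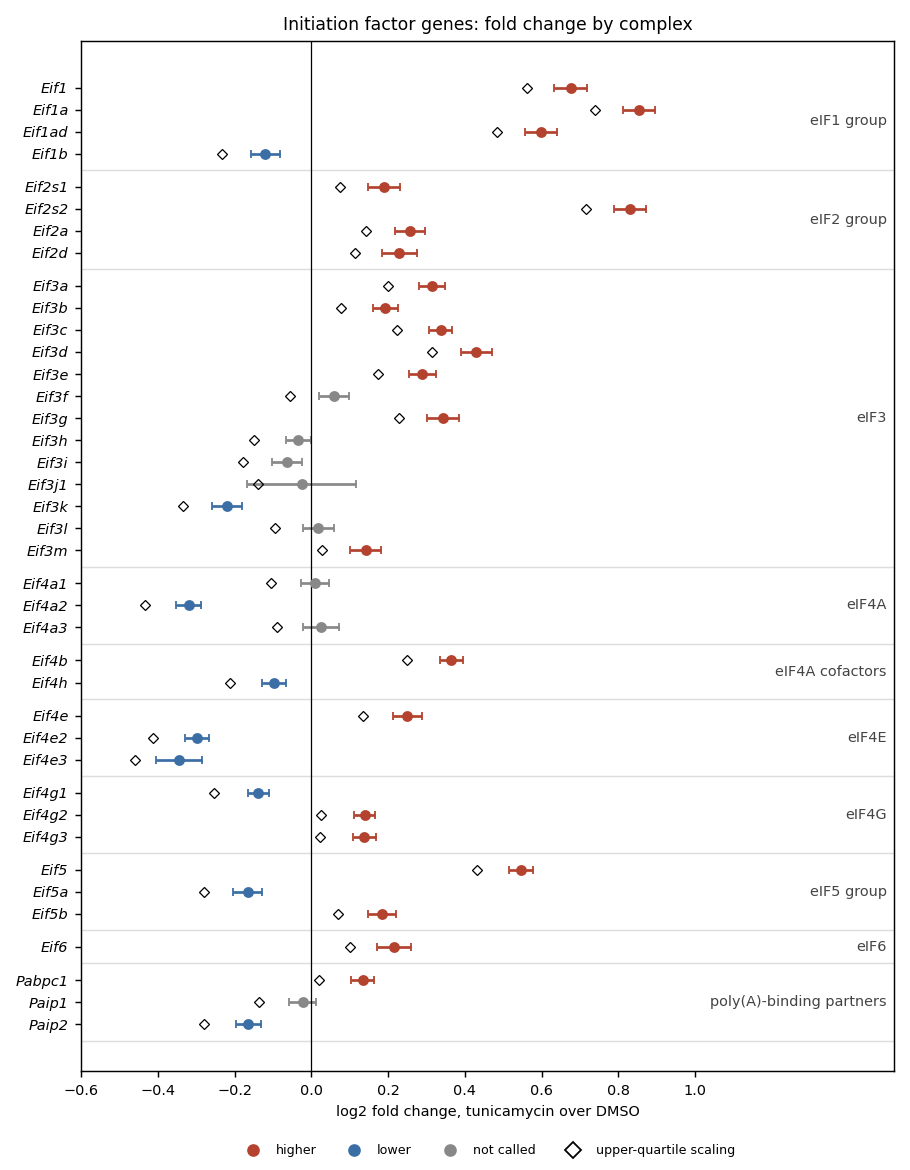
Log2 fold change (tunicamycin over DMSO) of the 39 initiation factor genes by complex, filled points with SE bars under TMM scaling, coloured by the edgeR call, with open diamonds for upper-quartile scaling. Eif1a (0.85) and Eif2s2 (0.83) lie farthest to the right and Eif4e3 (-0.35) farthest to the left, and each diamond lies left of its point.

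**Figure D2:**
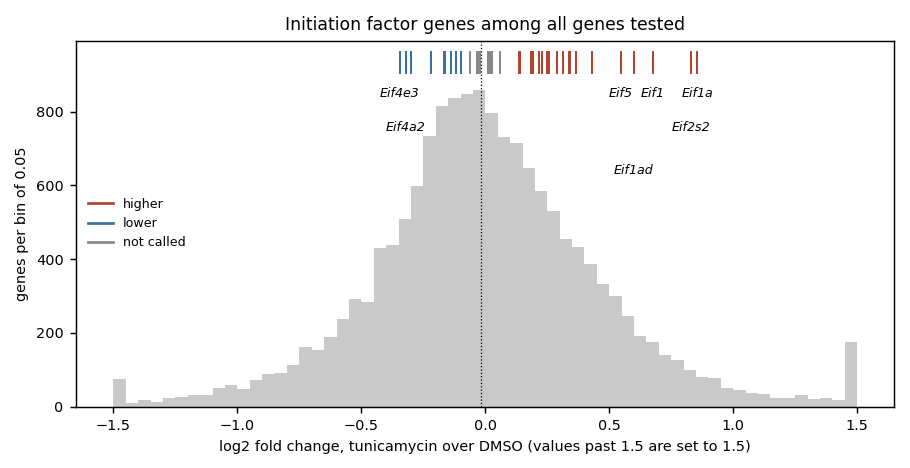
Distribution of log2 fold changes (x axis, bins of 0.05) over the 15660 genes tested, with the number of genes per bin on the y axis, the median as a dotted line and a tick for each of the 39 initiation factor genes, coloured by call. The ticks run from -0.35 to 0.85, and more lie right of the median than left of it.

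Promoter sequences are shown for the 4 genes with the largest rises and a single entry in the RefSeq promoter table, for Eif1b, the paralog of Eif1 that moved the other way, and for Eif4a2, which had the largest fall among genes with a single entry. Each run holds 100 bases before the annotated start and 20 after it, 5′ to 3′ on the gene's strand, from RefSeq on GRCm38.p6. Capitals mark TGACG on either strand, the core shared by sites of the CREB and ATF factors. The regions are chr2:154892887-154893006 on the minus strand (Eif2s2), and on the plus strand chr11:100319849-100319968 (Eif1), chr19:5366713-5366832 (Eif1ad), chr12:111538001-111538120 (Eif5), chr9:120492506-120492625 (Eif1b) and chr16:23107368-23107487 (Eif4a2).
Eif2s2: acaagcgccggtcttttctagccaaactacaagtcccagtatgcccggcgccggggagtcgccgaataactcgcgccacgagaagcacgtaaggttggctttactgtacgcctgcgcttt
Eif1: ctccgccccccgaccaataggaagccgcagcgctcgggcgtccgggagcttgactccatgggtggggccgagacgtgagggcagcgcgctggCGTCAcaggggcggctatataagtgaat
Eif1ad: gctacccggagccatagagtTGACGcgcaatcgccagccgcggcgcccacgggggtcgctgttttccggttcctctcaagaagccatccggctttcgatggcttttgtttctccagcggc
Eif5: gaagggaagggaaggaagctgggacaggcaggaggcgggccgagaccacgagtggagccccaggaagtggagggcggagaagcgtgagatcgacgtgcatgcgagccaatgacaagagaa
Eif1b: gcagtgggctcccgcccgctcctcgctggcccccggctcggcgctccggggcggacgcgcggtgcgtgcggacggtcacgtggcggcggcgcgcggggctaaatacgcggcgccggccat
Eif4a2: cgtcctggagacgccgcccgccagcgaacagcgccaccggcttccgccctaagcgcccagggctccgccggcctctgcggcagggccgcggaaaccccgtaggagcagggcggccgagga

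The table held windows for 30 of the 39 genes, 40 windows in all, each from 250 bases before to 50 after a start. None of the 40 held the ATF4-C/EBP composite letters TGATGNAA on either strand, which 3.97% of all 32851 windows held. None held the full palindrome TGACGTCA (1.79% of all windows) or the ER stress element ERSE (0.12%). Its core TGACG, which every full palindrome contains, was in 20 of the 40 windows and in 20.8% of all windows, without matching for base composition. By call, 8 of 17 genes that rose, 4 of 7 that fell and 3 of 6 that were not called had a window with it. The window of Eif4a2 held it, but not wholly within the run shown. Those of Eif2s2, Eif5 and Eif1b did not hold it. The runs of Eif1b and Eif4a2 were richer in G and C, at 80.8% and 76.7%, than those of Eif2s2 (57.5%), Eif1ad and Eif5 (62.5% each) and Eif1 (67.5%). The runs shown were picked mostly by fold change, and base composition was not compared over the other windows.

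The group of eIF1 and eIF1A held the largest rise. Eif1a, a gene on chromosome 18, encodes an eIF1A protein, which binds the decoding site of the small subunit. It had 123, 133 and 143 CPM as the lowest, median and highest of the tunicamycin libraries, against 74.8, 74.3, 69.6 and 73.7 CPM in DMSO libraries. Its groups stood far apart, by 0.85 ± 0.04 on the log2 scale (SE, edgeR adjusted p = 6.66e-14). Only 4.04% of all genes tested had a higher fold change. Eif1 (ENSMUSG00000035530, chromosome 11, 100319885 to 100322096, GRCm38) encodes the factor that guards against starting at wrong codons. Its levels were 106, 108 and 116 CPM (lowest, median, highest) with tunicamycin and 75.2, 62.7, 66.2 and 66.8 CPM with DMSO, which put it 0.68 ± 0.04 higher on the log2 scale (edgeR adjusted p = 5.23e-12). Again no library of either group reached the other, with tunicamycin replicate 4 above its group and DMSO replicate 1 above its own. Of the 50-base words of Eif1 transcripts, 19.2% also occur in transcripts of other genes, so its counts are uncertain. Eif1ad, which encodes a protein with an eIF1A domain, had 43.9, 46.0 and 48.0 CPM with tunicamycin (lowest, median, highest) and 31.0, 29.0, 30.1 and 30.6 CPM with DMSO (log2 0.60 ± 0.04). It shares 15.3% of its exonic bases with Banf1 on the other strand, and Banf1 itself fell (log2 -0.14, edgeR adjusted p = 0.00771).

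Eif1b, the second eIF1 gene, did the opposite of Eif1. It had 127, 131 and 141 CPM with tunicamycin (lowest, median, highest) and 149, 133, 147 and 141 CPM with DMSO. The groups overlapped, and the fall was small (log2 -0.12 ± 0.04, edgeR adjusted p = 0.00779). Per library, the ratio of Eif1 to Eif1b counts was 0.826 ± 0.0469 with tunicamycin and 0.475 ± 0.0222 with DMSO (SD, n = 6 and 4). That ratio differed by 0.80 ± 0.05 on the log2 scale, the widest shift among the 13 pairs compared. Per kilobase of exon, Eif1 had 51.9 ± 1.79 CPM with tunicamycin and 32.3 ± 2.52 CPM with DMSO, and Eif1b had 117 ± 4.39 CPM with tunicamycin and 127 ± 6.70 CPM with DMSO, so Eif1b stayed the more abundant of the pair by this measure.

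Within eIF2, the beta subunit gene stood apart from the alpha subunit gene. Eif2s2 (ENSMUSG00000074656, chromosome 2, 154871410 to 154892935), which encodes eIF2 beta, had 124, 133 and 143 CPM with tunicamycin (lowest, median, highest) and 75.3, 69.2, 75.2 and 78.1 CPM with DMSO. The groups did not come near each other (log2 0.83 ± 0.04, edgeR adjusted p = 1.68e-13). Eif2s1, which encodes eIF2 alpha, the subunit that PERK phosphorylates, had 68.2, 69.996 and 76.1 CPM with tunicamycin and 66.0, 57.8, 60.6 and 62.5 CPM with DMSO. Its tunicamycin libraries were just above the DMSO ones (log2 0.19 ± 0.04, edgeR adjusted p = 0.000351). The ratio of Eif2s2 to Eif2s1 counts was 1.81 to 1.94 in tunicamycin libraries and 1.14 to 1.25 in DMSO libraries, a pair chosen after its values were seen and not tested. Of the words of Eif2s2 transcripts, 10.3% also occur in other genes. The gamma subunit genes Eif2s3x (log2 0.15) and Eif2s3y (log2 0.24) were called higher by small amounts, as were Eif2a (log2 0.26 ± 0.04) and Eif2d (log2 0.23 ± 0.05), which encode separate factors that can deliver the initiator tRNA in other ways. Of the words of Eif2s3x, 34.6% also occur in other genes, and its adjusted p was 0.0431 by edgeR, so its rise is uncertain. Eif2s3y lies on the Y chromosome, and the share of male cells in each library was not examined. Eif2a had 46.8 to 51.2 CPM with tunicamycin and 39.7 to 40.9 CPM with DMSO, and Eif2d had 37.1 to 42.2 CPM with tunicamycin and 32.3 to 35.7 CPM with DMSO, with no overlap in either gene.

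The 13 genes of eIF3 moved unevenly, with 7 higher, 1 lower and 5 not called. That is 53.8% higher and 7.69% lower, against 31.8% and 32.5% of all genes tested. Eif3d, whose protein can itself bind the cap, rose most. It had 80.9, 83.9 and 90.2 CPM with tunicamycin (lowest, median, highest) and 66.9, 59.3, 64.5 and 58.4 CPM with DMSO, and the log2 difference was 0.43 ± 0.04 (edgeR adjusted p = 4.61e-09). An antisense gene, Gm17638, covers 43.3% of the exonic bases of Eif3d, and without strand the reads of both cannot be told apart where they overlap. Gm17638 itself held 0.805 ± 0.138 CPM with tunicamycin and 0.527 ± 0.211 CPM with DMSO. The scaffold genes Eif3a and Eif3c rose as well. Eif3a had 465, 485 and 496 CPM with tunicamycin and 362, 394, 389 and 401 CPM with DMSO (log2 0.31 ± 0.03). Eif3c had 413, 419 and 429 CPM with tunicamycin and 344, 314, 335 and 332 CPM with DMSO (log2 0.34 ± 0.03). In both the lowest tunicamycin library was above the highest DMSO library. Eif3g, an RNA-binding subunit, had 65.0, 69.7 and 72.5 CPM with tunicamycin and 59.7, 52.0, 54.1 and 52.5 CPM with DMSO (log2 0.34 ± 0.04). Smaller rises were those of Eif3e (log2 0.29 ± 0.03), Eif3b (0.19 ± 0.03) and Eif3m (0.14 ± 0.04), the last with overlapping groups.

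Eif3k, a small peripheral subunit, was the 1 eIF3 gene that fell. Its levels were 56.4, 62.1 and 63.6 CPM with tunicamycin (lowest, median, highest) and 76.4, 70.5, 69.98 and 67.6 CPM with DMSO, with no overlap (log2 -0.22 ± 0.04, edgeR adjusted p = 4.1e-05). Eif3f, Eif3h, Eif3i, Eif3l and Eif3j1 were not called, and their groups overlapped. Their log2 fold changes had 95% intervals (normal approximation) of -0.02 to 0.14 for Eif3f, -0.10 to 0.03 for Eif3h, -0.14 to 0.02 for Eif3i and -0.06 to 0.10 for Eif3l. Eif3f was called higher without DMSO replicate 1 (log2 0.11, edgeR adjusted p = 0.0127) and Eif3i lower without DMSO replicate 2 (log2 -0.10, edgeR adjusted p = 0.0452). Under upper-quartile scaling Eif3h (log2 -0.15), Eif3i (log2 -0.18) and Eif3l (log2 -0.10) were called lower. Eif3j1, a loosely bound subunit, was counted at 2.03 ± 0.245 CPM with tunicamycin and 2.05 ± 0.294 CPM with DMSO, and its interval of -0.30 to 0.25 is wide. Of its words, 50.9% also occur in other genes, mainly its near-identical copy Eif3j2, so neither its level nor that of Eif3j2 (log2 0.21, edgeR adjusted p = 0.09) can be taken as the gene's own.

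**Figure D3:**
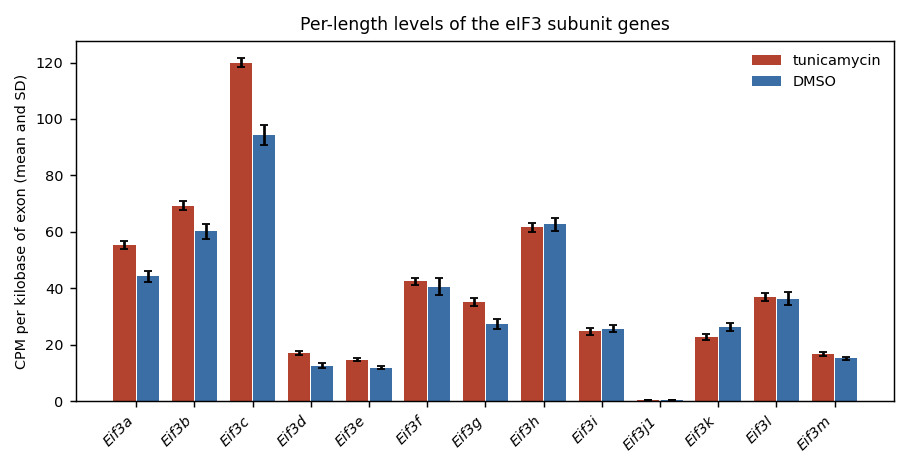
Levels of the 13 eIF3 subunit genes in CPM per kilobase of exon (mean and SD, tunicamycin n = 6 left, DMSO n = 4 right). Eif3c is the highest in both groups, at 119.96 CPM per kilobase with tunicamycin and 94.4 with DMSO, and Eif3j1 the lowest.

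In the cap-binding complex, related genes moved in opposite directions. Eif4e, the cap-binding protein that starts assembly, had 68.3, 73.0 and 76.0 CPM with tunicamycin (lowest, median, highest) and 61.9, 58.9, 61.1 and 60.4 CPM with DMSO. It rose without overlap (log2 0.25 ± 0.04, edgeR adjusted p = 5.75e-06). Eif4e2 encodes 4EHP, which binds caps without joining eIF4G and is known as a repressor. Its levels were 74.1, 75.9 and 78.0 CPM with tunicamycin and 94.0, 93.9, 90.8 and 93.3 CPM with DMSO (log2 -0.30 ± 0.03, edgeR adjusted p = 1.95e-08). Eif4e3, the third cap-binding gene, was much lower, at 10.6, 11.2 and 12.6 CPM with tunicamycin and 13.8, 14.5, 14.4 and 14.5 CPM with DMSO (log2 -0.35 ± 0.06, edgeR adjusted p = 3.47e-05). In both the highest tunicamycin library lay below the lowest DMSO library. Eif4e3 overlaps Gm20696 in 14.8% of its exonic bases, a gene at 0.0219 CPM with tunicamycin and 0.0229 CPM with DMSO.

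The helicase genes of eIF4A differed too. Eif4a2 (ENSMUSG00000022884, chromosome 16, 23107444 to 23114136), the eIF4A gene known to prevail in brain, had 294, 315 and 325 CPM with tunicamycin (lowest, median, highest) and 399.8, 376, 385 and 395 CPM with DMSO. It fell without overlap (log2 -0.32 ± 0.03, edgeR adjusted p = 1.53e-08). Several small nucleolar RNA genes lie within it, and 13.3% of its exonic bases overlap other genes. Eif4a1 had 47.3, 48.3 and 51.2 CPM with tunicamycin and 49.7, 46.8, 46.6 and 48.6 CPM with DMSO, with a 95% interval of -0.06 to 0.08 on the log2 scale. Of the words of Eif4a1, 28.4% also occur in other genes, among them pseudogenes, so the level set against that of Eif4a2 is uncertain. Eif4a3, the helicase of the exon junction complex, had 39.8, 45.1 and 47.2 CPM with tunicamycin and 46.4, 41.9, 43.0 and 41.7 CPM with DMSO, with an interval of -0.07 to 0.12. Under upper-quartile scaling Eif4a1 was called lower (log2 -0.10, edgeR adjusted p = 0.0151).

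Eif4b and Eif4h encode RNA-binding proteins that stimulate eIF4A. Eif4b had 275, 281 and 284 CPM with tunicamycin and 223, 208, 219 and 214 CPM with DMSO (log2 0.36 ± 0.03, edgeR adjusted p = 4.8e-10). Eif4h had 285, 293 and 303 CPM with tunicamycin and 329, 304, 317 and 301 CPM with DMSO, with overlapping groups (log2 -0.10 ± 0.03, edgeR adjusted p = 0.00901), and was not called without the filter on low counts (edgeR adjusted p = 0.0717). The rise of Eif4b separated the groups in every library, and that was not so for the fall of Eif4h.

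Among the scaffold genes of eIF4G, the main one fell and the other two rose. Eif4g1 had 537, 553 and 555 CPM with tunicamycin (lowest, median, highest) and 604, 599, 611 and 593 CPM with DMSO (log2 -0.14 ± 0.03, edgeR adjusted p = 0.00011). Eif4g2 encodes DAP5, which lacks the part that binds eIF4E and is known from translation that does not use the cap. It was the most abundant member, at 1794, 1802 and 1897 CPM with tunicamycin and 1638, 1673, 1630 and 1647 CPM with DMSO (log2 0.14 ± 0.03). Eif4g3, the second full-length scaffold gene, had 309, 319 and 326 CPM with tunicamycin and 279, 297, 285 and 289.5 CPM with DMSO (log2 0.14 ± 0.03). None of these 3 genes overlapped between groups. Under upper-quartile scaling the rises of Eif4g2 and Eif4g3 were not called (log2 0.02 each).

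**Figure D4:**
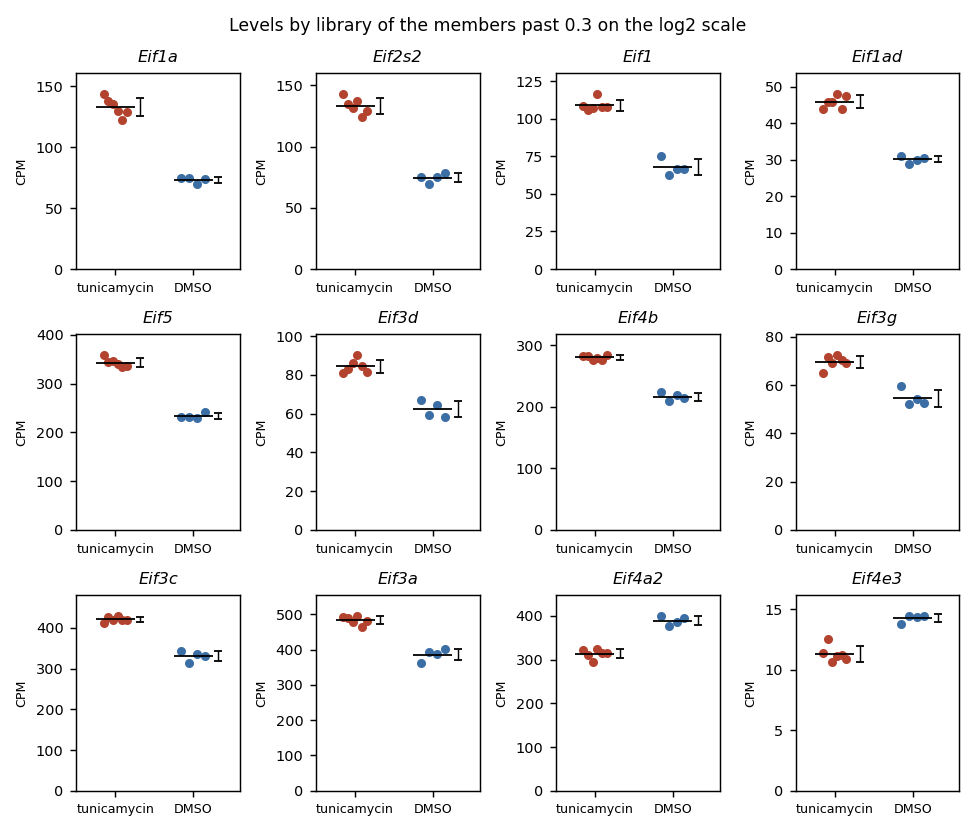
CPM by library (y axis from 0) of the 12 initiation factor genes called with a log2 fold change of at least 0.3 in size, tunicamycin left and DMSO right, with the mean as a line and the SD as a bar beside it. The first 10 panels, from Eif1a to Eif3a, have every tunicamycin library above every DMSO library, and Eif4a2 and Eif4e3 have every one below.

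Whether related genes changed unequally was tested on the ratio of their counts in each library, with a two-sided exact permutation test over the 210 arrangements of the group labels, adjusted over the 13 pairs. The smallest p that this test can give is 0.00476, and 9 pairs reached it (adjusted p = 0.00688). These 13 pairs too were chosen with earlier results of these data known, so their p-values are no independent support. Eif4e rose relative to Eif4e2, with a ratio of 0.953 ± 0.0529 with tunicamycin and 0.651 ± 0.0194 with DMSO, and relative to Eif4e3, with 6.42 ± 0.324 with tunicamycin and 4.25 ± 0.178 with DMSO. Eif4b rose relative to Eif4h, at 0.951 ± 0.0311 with tunicamycin and 0.691 ± 0.0137 with DMSO. In these pairs no library of either group reached the other group. Within eIF4A, the ratio of Eif4a1 to Eif4a2 was 0.155 ± 0.00515 with tunicamycin and 0.123 ± 0.0016 with DMSO, and that of Eif4a2 to Eif4a3 was 7.11 ± 0.614 with tunicamycin and 9.01 ± 0.364 with DMSO. Eif4g1 fell relative to Eif4g2, at 0.302 ± 0.0104 with tunicamycin and 0.365 ± 0.00782 with DMSO, and relative to Eif4g3, at 1.73 ± 0.0462 with tunicamycin and 2.09 ± 0.0704 with DMSO. Eif1a rose relative to Eif1ad, at 2.90 ± 0.214 with tunicamycin and 2.42 ± 0.105 with DMSO, and the other pair at the smallest p was Eif1 to Eif1b. The ± of each of these ratios is an SD over 6 tunicamycin or 4 DMSO libraries. Paip1 to Paip2 came next, at 0.654 ± 0.0261 with tunicamycin and 0.592 ± 0.015 with DMSO (exact permutation p = 0.00952, adjusted p = 0.0124). Pairs within eIF4A, eIF4E and eIF4G share genes, so their shifts are not separate from one another.

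For 3 pairs no unequal change was found. The ratio of Eif4g2 to Eif4g3 was 5.73 ± 0.121 with tunicamycin and 5.72 ± 0.0999 with DMSO, a difference of 0.00044 ± 0.02 on the log2 scale (SE, exact permutation p = 0.995). The 95% interval of that difference was -0.03 to 0.04. The log2 ratio of Eif4e2 to Eif4e3 differed by 0.05 (interval -0.05 to 0.14, exact permutation p = 0.41) and that of Eif4a1 to Eif4a3 by -0.01 (interval -0.11 to 0.09, exact permutation p = 0.83). Libraries were sequenced in 3 lanes, as the file names show. All 10 pairs past the threshold differed in the same direction within each lane. That follows from the lack of overlap between groups in these pairs, so it is no separate check on lane. DMSO replicate 3 was the only DMSO library in lane 2, and DMSO replicate 4 the only one in lane 3. The lane differences of Eif1 to Eif1b were 0.72, 0.91 and 0.81 on the log2 scale, those of Eif4e to Eif4e2 were 0.65, 0.50 and 0.47, and those of Eif4a1 to Eif4a2 were 0.31, 0.41 and 0.29.

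**Figure D5:**
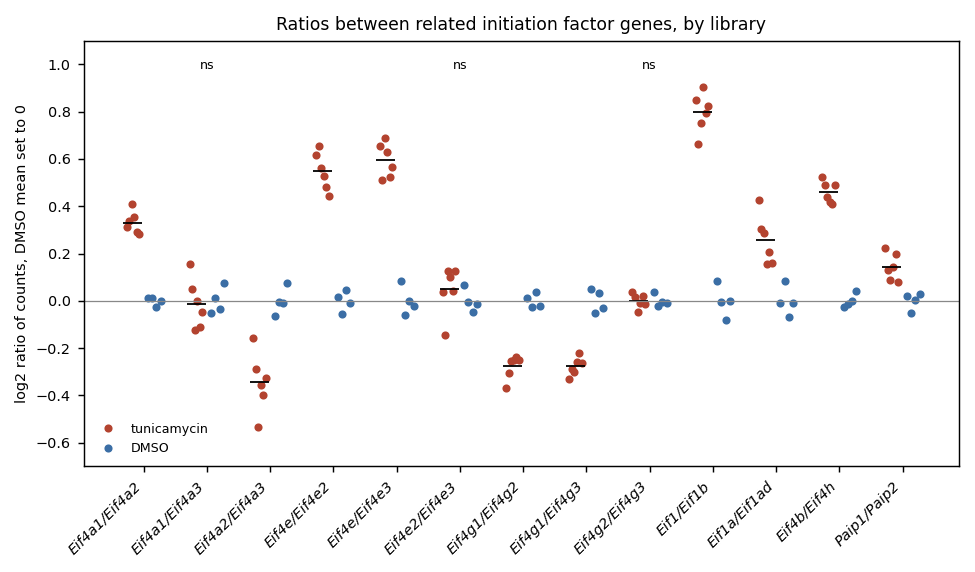
Log2 ratio of counts for 13 pairs of related genes in each library, with the DMSO mean of each pair set to 0 (tunicamycin left, DMSO right, line at the tunicamycin mean, "ns" at an adjusted permutation p of 0.05 or more). The ratio of Eif1 to Eif1b differs most, by 0.80, and the 3 pairs without a call scatter around 0.

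The factors of start codon recognition and subunit joining were led by Eif5. Eif5 (ENSMUSG00000021282, chromosome 12, 111538016 to 111546752), which encodes the factor that makes eIF2 hydrolyse its GTP, had 333, 342 and 359 CPM with tunicamycin (lowest, median, highest) and 232, 232, 229 and 241 CPM with DMSO. The gap between the groups was wider than either group (log2 0.55 ± 0.03, edgeR adjusted p = 1.2e-12). Eif5b, the GTPase of subunit joining, rose less, with 134 to 146 CPM with tunicamycin and 119 to 132 CPM with DMSO (log2 0.18 ± 0.04). It shares 16.9% of its exonic bases with Rev1 on the other strand, which rose more (log2 0.58, edgeR adjusted p = 1.47e-10). Eif5a, which helps the ribosome through difficult peptide bonds, had 198 to 229 CPM with tunicamycin and 226 to 251 CPM with DMSO and fell with overlap (log2 -0.17 ± 0.04, edgeR adjusted p = 0.000725). Eif6, which keeps the large ribosomal subunit from joining too early, had 56.7 to 64.7 CPM with tunicamycin and 47.7 to 55.0 CPM with DMSO (log2 0.22 ± 0.04).

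At the poly(A) tail, Pabpc1, the main cytoplasmic poly(A)-binding protein, had 245 to 256 CPM with tunicamycin and 217 to 236 CPM with DMSO, a rise of 0.13 ± 0.03 on the log2 scale. Paip1, which stimulates translation through Pabpc1, had 71.1, 74.2 and 76.0 CPM with tunicamycin (lowest, median, highest) and 77.9, 70.6, 74.5 and 75.6 CPM with DMSO, with a 95% interval of -0.09 to 0.05. Paip2, which pulls Pabpc1 off the tail, had 108, 114 and 116 CPM with tunicamycin and 129.8, 124, 126 and 125 CPM with DMSO (log2 -0.16 ± 0.03, edgeR adjusted p = 0.000151). All tunicamycin values of Paip2 were below all DMSO values.

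Set beside each other per kilobase of exon in DMSO libraries, the members spanned a wide range. Eif4g2 was highest at 162 ± 1.82 CPM per kilobase, followed by Eif1b at 127 ± 6.70, Eif5a at 100.5 ± 4.60 and Eif3c at 94.4 ± 3.56, the last 2 with overlapping libraries. Eif4g1 (82.4 ± 1.08) and Eif4a2 (72.9 ± 1.98) came next. At the low end were Eif2a (6.60 ± 0.094), Eif4e3 (5.68 ± 0.130), Eif2d (4.50 ± 0.227) and Eif3j1 (0.352 ± 0.0504). These levels rest on the full exon length in GENCODE M21 and are lowered for genes with near-identical copies if shared reads were dropped, which is not given in the sources used here.

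Other genes of translation moved in both directions. Their counts stand against the 31.8% higher and 32.5% lower of all genes tested under TMM. Counts under upper-quartile scaling stand against 23.2% higher and 44.3% lower. Of 16 tested genes of further initiation proteins 7 rose and 3 fell, among them Eif4enif1, which carries eIF4E to processing bodies (log2 0.35), and Larp4b (log2 0.29), and on the falling side Pdcd4, an inhibitor of eIF4A (log2 -0.34), and Mcts1, a partner in ribosome recycling (log2 -0.34). Their median was 0.13, and under upper-quartile scaling 6 fell. Of 11 tested genes that control the cap complex 4 rose and 6 fell, with a median of -0.13. Eif4ebp1, which encodes the eIF4E inhibitor 4E-BP1, rose far more than any initiation factor gene, with 46.7 CPM on average with tunicamycin and 9.34 CPM with DMSO (log2 2.32 ± 0.06, edgeR adjusted p = 1e-18). Of the kinases that phosphorylate eIF4E, Mknk1 rose (log2 0.76) and Mknk2 fell (log2 -0.59). Gigyf2, the partner of 4EHP, fell (log2 -0.42).

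Of 13 genes that act on eIF2, 8 rose and 1 fell, with a median of 0.20. These genes encode the eIF2 kinases, the phosphatase subunits, the eIF2B exchange factor, Impact and the adaptor Nck1. Ppp1r15a, the stress-induced subunit that directs dephosphorylation of eIF2 alpha (log2 1.93), and Eif2ak3, which encodes PERK (log2 1.67), rose most, and Eif2ak2, which encodes PKR, fell (log2 -0.43). Under upper-quartile scaling 5 rose and 4 fell, against 23.2% higher and 44.3% lower of all genes tested. Of 15 elongation and termination genes 5 rose and 6 fell, close to the shares of all genes, with a median of 0.01, and 3 rose without DMSO replicate 2 or under upper-quartile scaling. Hbs1l (log2 0.59), whose product rescues stalled ribosomes, and Etf1 (log2 0.53), which encodes the release factor eRF1, rose most, and Gspt2 (log2 -0.36) and the neuronal elongation factor gene Eef1a2 (log2 -0.21) fell. Of 27 ribosomal protein genes 7 rose, 4 fell and 16 were not called, with a median of -0.01, led by Rpl3 (log2 0.92) and Rpl12 (log2 0.85), and on the falling side by Rps2 (log2 -0.16) and Rps4x (log2 -0.14). Under upper-quartile scaling 3 of the 27 ribosomal protein genes rose and 12 fell, against 23.2% higher and 44.3% lower of all genes tested. Rpl3, Rpl12, Rps2 and Rps4x share 35.0%, 17.7%, 43.0% and 41.2% of their words with other genes, so their counts are uncertain, as are those of Hbs1l (31.4%).

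In the authors' deposited tables, 22 of the 39 genes were listed as upregulated and 9 as downregulated, and these were the same genes in the same directions as called here by edgeR. As used here those tables held 4697 upregulated and 4814 downregulated genes. The authors' deposited table gave Eif1a a log2 fold change of 0.85, Eif2s2 0.82 and Eif4e3 -0.35.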

How the data were processed

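Polyadenylated RNA was made into unstranded libraries with the TruSeq RNA v2 kit and sequenced as single 50 bp reads, per the labels' protocols. Per the submitters' processing notes, the tools included STAR 2.5.2b, featureCounts, Subread 1.5.1, FastQC 0.11.5 and DESeq2, and the genome was mm10. The authors deposited whole-number counts per gene for each library. They also deposited tables of changed genes with a log2 fold change, an adjusted p-value and a normalized signal per library.

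Names, lengths and overlaps came from GENCODE M21 (GRCm38, also called mm10), which matched 48349 of 48709 identifiers. All 10 libraries entered edgeR 4.0.16 (R 4.3.3) with filterByExpr, TMM and a two-sided robust quasi-likelihood test, adjusted by Benjamini-Hochberg over all genes tested. An SE is the fold change over the square root of F. Each library counts as a replicate. No label ties libraries to separate cultures or animals, so a p-value here covers only library-to-library spread, possibly technical. Libraries of a group differed by more than counting noise (chi-square over its degrees of freedom, 2.18 to 10.5).

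Overlap is the share of exonic bases that lie in other genes, and shared words are the 50-base stretches of a gene's transcripts that other genes hold too. Called members of at least 0.3 in log2 size, members of a pair, and also Eif2s1 and Eif3k are given by each DMSO library and by the lowest, median and highest tunicamycin library. Each other list gives up to 4 genes, the 2 highest and 2 lowest called. Further genes are named because they overlap a member, copy it or encode part of its complex. The members, pairs and lists were chosen with earlier results of these data known. The code was tested on simulated counts. Alternatives were other scalings, filters, DESeq2, lane, a replicate block and each library left out.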

Additional observations from a re-analysis of the deposited data

Results flagged for a closer look

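In 106 sets of libraries, each a gene's level, a pair's ratio or the sum over the 39 genes within 1 group, 8 had a library far from the rest by Dixon's ratio. Chance flags about 1 in 20 such sets. Of the tunicamycin libraries, replicate 4 had the highest Eif1 level, 116.3 CPM against 106 to 109 CPM in the others. Replicate 1 had the lowest Eif3k level, 56.4 CPM against 61.1 to 63.6 CPM, and the lowest Eif4g1 level, 537 CPM against 549 to 555 CPM. Replicate 2 had the highest Eif4e3 level, 12.6 CPM against 10.6 to 11.4 CPM, and the lowest ratio of Eif4e2 to Eif4e3, 5.90 against 6.69 to 7.11. Replicate 5 had the lowest Eif5b level, 134 CPM against 143 to 146 CPM. Of the DMSO libraries, replicate 1 had the highest Eif2d level, 35.7 CPM against 32.3 to 32.4 CPM, and the lowest Eif4e3 level, 13.8 CPM against 14.4 to 14.5 CPM. Of these values only the ratio of Eif4e2 to Eif4e3 belongs to a result with no call. The 7 gene levels stayed outside the range of the other group.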

How the results depend on the processing

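DESeq2, DESeq2's size factors, a minimum mean of 1 CPM, a lane term and libraries numbered 1 to 4 without a block each gave 22 initiation factor genes higher and 9 lower, and without each library in turn there were 22 to 23 higher and 9 to 10 lower. Without a filter on low counts Eif4h was no longer called (log2 -0.08, edgeR adjusted p = 0.0717). Upper-quartile scaling gave 15 higher and 14 lower, and among all genes tested 23.2% higher and 44.3% lower. It turned Eif3l to -0.10 and Eif4a1 to -0.10, both called lower, and also called Eif3h (-0.15), Eif3i (-0.18) and Paip1 (-0.14) lower. It gave 3 elongation and termination genes higher, 6 other initiation genes lower, 5 eIF2 control genes higher and 4 lower, and 3 ribosomal protein genes higher and 12 lower. Left-out libraries gave 3 to 6 elongation and termination genes higher.

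No pairing of libraries by replicate number was seen. The correlations of same-numbered libraries were -0.22, 0.01, -0.06 and -0.07, and none correlated best with its own number. So few correlations cannot exclude a shared origin of same-numbered libraries. With the numbers as a replicate block over libraries 1 to 4, 22 initiation factor genes were higher and 8 lower (Eif1b, log2 -0.11, edgeR adjusted p = 0.0871, was not called), 8886 of all genes were called, against 9458 without the block, and 3 elongation and 4 ribosomal protein genes were higher.

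Within lanes, the log2 differences of pairs that moved by more than the spread of libraries were, in lane 1, -0.19 for Eif4a2 to Eif4a3, 0.65 for Eif4e to Eif4e2, -0.33 for Eif4g1 to Eif4g2, 0.72 for Eif1 to Eif1b and 0.53 for Eif4b to Eif4h. In lane 2 they were 0.41 for Eif4a1 to Eif4a2, 0.16 for Eif4e2 to Eif4e3 and 0.91 for Eif1 to Eif1b. In lane 3 they were 0.29 for Eif4a1 to Eif4a2, -0.15 for Eif4a1 to Eif4a3, 0.47 for Eif4e to Eif4e2, -0.22 for Eif4g1 to Eif4g2, -0.21 for Eif4g1 to Eif4g3 and 0.41 for Eif4b to Eif4h. Permuted within lanes, where the smallest p is 0.0185, the same 10 pairs passed. Groups of these 10 pairs did not overlap, so that result adds little beyond the lack of overlap. The cause of each change was not tested. The effect of depth was not tested.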
